A study of Mus musculus with 20 samples.

Results

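Chromatin accessibility was compared between CSF1R+ and CSF1R- B-cell precursors (BMBP) of mouse bone marrow (BM), not by whether a peak was present but by how strong it was where every library had one. BM peaks sharing 1 base or more across the 6 libraries were joined into regions, and the autosomal regions with a peak in all 6 libraries were kept, which were 49413 of 90734 BM regions (54.5%). In each library the fold enrichment that the peak caller MACS gave to the largest peak of a region was turned into a percentile over these 49413 regions, from 0 for the weakest to 100 for the strongest. The CSF1R+ group held 3 libraries and the CSF1R- group 3 libraries. Both groups were BMBP sorted from the BM of untreated tumor-free mice, described in the methods as young females, and differed by surface CSF1R. No transgene, deletion or treatment is named for either group, and neither the strain behind these libraries nor whether 1 or several mice went into a library is given in the sources used here. P-values therefore measure the spread between these libraries, which may be technical. The labels call the cells macrophages while the paper calls them BMBP, and the latter name is used here. From spleen, 6 more libraries (3 CSF1R+ and 3 CSF1R-) carried the same contrast.

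In ATAC-seq a transposase cuts DNA where nucleosomes and bound proteins leave it open, so a stronger peak is a stretch that was cut more often above its surroundings. B-cell precursors in BM pass from pro-B to pre-B and immature B cells under EBF1, PAX5 and the E-box binding E2A proteins, together with RUNX1 and the ETS factors PU.1 and ETS1. PU.1 is shared with macrophages, in which it acts at high levels with C/EBP factors. CSF1R, the receptor of M-CSF, is the defining receptor of monocytes and macrophages, and PAX5 is known to repress its gene in B cells.

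The regions with the lowest p in each direction are shown by sequence, since the motifs counted further on are matched in such windows. Each window is 200 bases around the mean peak summit on the plus strand of GRCm38 (mm10), read 5′ to 3′, and the first 3 distal regions in each direction, none of them in an untranslated region (UTR), are given. Capitals mark every match, on either strand, to AGGAAG (ETS), TGTGGT (RUNX), CAGCTG (the E-box bound by E2A) or CACCTG (another E-box). The windows stronger in CSF1R+ cells were the Bach2 window at chr4:32351366-32351565, the Arhgap10 window at chr8:77366591-77366790 and the Maml3 window at chr3:51847358-51847557.
Bach2: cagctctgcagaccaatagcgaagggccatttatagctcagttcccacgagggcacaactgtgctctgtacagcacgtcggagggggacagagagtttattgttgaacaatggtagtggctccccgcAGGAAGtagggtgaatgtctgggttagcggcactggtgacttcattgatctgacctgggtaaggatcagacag
Arhgap10: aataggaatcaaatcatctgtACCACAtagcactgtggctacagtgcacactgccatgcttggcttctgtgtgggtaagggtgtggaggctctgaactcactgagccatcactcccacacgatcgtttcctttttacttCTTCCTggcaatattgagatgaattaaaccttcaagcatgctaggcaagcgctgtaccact
Maml3: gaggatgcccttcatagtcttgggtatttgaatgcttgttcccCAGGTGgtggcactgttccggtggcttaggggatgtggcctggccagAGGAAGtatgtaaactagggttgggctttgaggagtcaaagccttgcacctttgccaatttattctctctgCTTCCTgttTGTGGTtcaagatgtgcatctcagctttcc

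The windows weaker in CSF1R+ cells were the Cycs window at chr6:50536677-50536876, the Sox4 window at chr13:29081179-29081378 and the Rpap3 window at chr15:97581709-97581908.
Cycs: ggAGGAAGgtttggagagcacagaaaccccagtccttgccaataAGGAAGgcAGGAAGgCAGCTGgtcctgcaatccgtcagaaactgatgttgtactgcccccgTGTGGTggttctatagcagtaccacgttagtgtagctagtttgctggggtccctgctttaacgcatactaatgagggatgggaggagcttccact
Sox4: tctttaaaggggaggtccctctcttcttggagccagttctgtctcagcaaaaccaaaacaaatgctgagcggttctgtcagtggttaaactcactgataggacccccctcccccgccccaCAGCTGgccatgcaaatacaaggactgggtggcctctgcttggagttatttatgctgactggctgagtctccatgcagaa
Rpap3: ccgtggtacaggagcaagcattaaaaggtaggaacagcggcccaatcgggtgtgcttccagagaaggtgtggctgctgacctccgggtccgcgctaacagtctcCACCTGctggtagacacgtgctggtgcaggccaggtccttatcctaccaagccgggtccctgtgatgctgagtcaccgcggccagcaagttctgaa
An ETS match stood in each of the 3 stronger windows, 1 in Bach2, 1 in Arhgap10 and 2 in Maml3. Each of the 3 weaker windows held an E-box match, as did the Maml3 window, while the Cycs window also held 3 ETS matches.

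The BM lists held 65832 to 76530 peaks per library, with a median fold enrichment of 7.34 to 8.58. Read counts were not used here, but fold enrichment and p-value together fix the whole number of fragments stacked at each summit. In the 49413 regions its median was 65, 83 and 77 in CSF1R+ and 75, 82 and 85 in CSF1R- libraries. Stacks are printed below as these whole numbers, not scaled to depth, so whether groups overlap can change with scaling. Log2 differences of stacks were taken after quantile normalization. The lowest local background among the peaks was 3.584, 3.442 and 3.189 fragments in CSF1R+ and 2.875, 3.367 and 3.375 in CSF1R- libraries. So the first CSF1R+ library had the lowest median stack and the highest such background. Its median fold enrichment over the regions was 9.033, the lowest of the BM libraries. Fold enrichment is taken over the local background, so it does not rank regions as the stack does. Across regions within a library the rank correlation of the 2 scores was 0.640 to 0.740, where regions are not independent replicates. No library repeated another, since the variance of summit stacks between any pair was 1.74 to 5.44 times that of counting error. Replicates differed by a mean of 7.90 to 9.89 percentile points, and libraries of different groups by 8.17 to 11.4. On principal component analysis of the percentiles, the first component held 36.8% of the variance, with CSF1R+ libraries at -238, 1772 and 887 and CSF1R- libraries at -1765, -109 and -547, so the first CSF1R+ library lay among the CSF1R- libraries on this component. On the second component, with 20.4% of the variance, it stood apart from both groups, at -1727 with the other 5 libraries between 39.8 and 918.

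Promoters (a peak within 1 kb of an annotated start) of lineage markers were checked against the labelled cell type. Every one of 8 B-lineage markers, among them Pax5, Ebf1, Cd79a, Vpreb1 and Rag1, had a promoter peak in all 6 libraries, with a median percentile of 47.0. Of 8 macrophage markers, 7 also did (among them Csf1r, Adgre1, Itgam, Cd68 and Lyz2), with a median percentile of 15.6, and Fcgr1 had a peak in 4 of 6. The mean percentile of the macrophage promoters was 25.1, 24.4 and 24.6 in CSF1R+ and 27.0, 23.6 and 24.5 in CSF1R- libraries, and that of the B-lineage promoters was 48.5, 42.8 and 42.6 in CSF1R+ and 43.2, 44.9 and 42.0 in CSF1R- libraries. Neither list separated the groups. Promoters of Elane (neutrophil), Cd3e and Ncr1 (T and NK cell) and Jchain (plasma cell) had no peak in any BM library, whereas 2 of 5 neutrophil (S100a8, S100a9), 2 of 5 T and NK cell (Cd3d, Zap70), the erythroid factor Klf1, 2 of 3 plasma cell (Sdc1, Prdm1) and both plasmacytoid dendritic cell markers (Siglech, Ccr9) had one in all 6. An open promoter in bulk does not tell a few cells of another type from weak opening in many. The mean percentile of the S100a8 and S100a9 promoters was 38.0, 37.0 and 29.9 in CSF1R+ and 28.8, 27.4 and 30.8 in CSF1R- libraries, and those of the T and NK, erythroid, plasma and plasmacytoid dendritic cell markers overlapped between the groups as well.

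No shared region passed the test between CSF1R+ and CSF1R- BMBP. By limma on the percentiles with Benjamini-Hochberg adjustment, 0 of 49413 regions (0%) were stronger and 0 (0%) weaker in CSF1R+ cells at an adjusted p under 0.05, and the lowest adjusted p was 0.410. At an unadjusted p under 0.05 limma gave 2207 stronger (4.47%) and 2390 weaker regions (4.84%). The median 95% interval of a difference reached 13.3 percentile points to either side and was wider than 10 points to either side in 65.3% of regions. The median size of a difference was 4.11 points and 80% of regions differed by less than 10. As a description, 1942 regions (3.93%) had all 3 CSF1R+ percentiles above all 3 CSF1R- percentiles with means at least 10 points apart, and 2066 (4.18%) had the reverse. These regions are called separated in what follows.

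**Figure D1:**
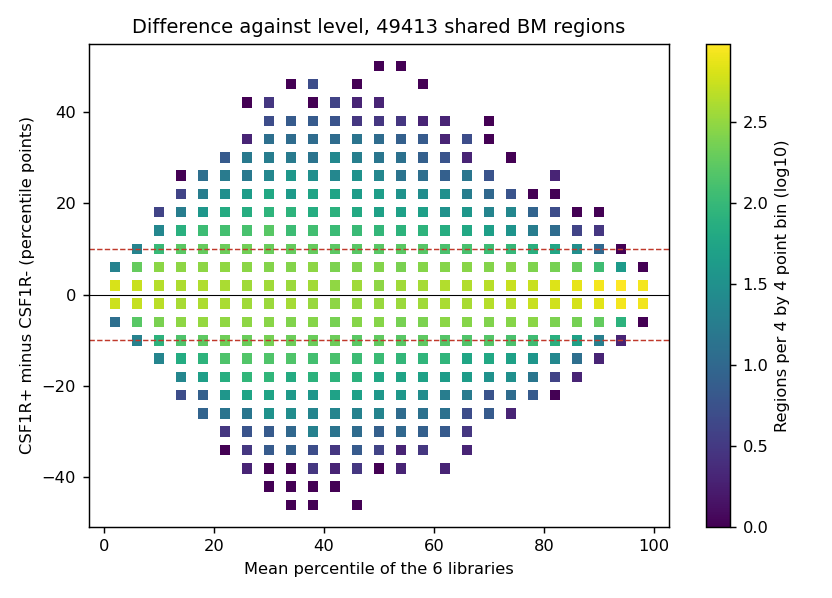
Difference in mean percentile (CSF1R+ minus CSF1R-, y axis) against the mean percentile of the 6 BM libraries (x axis) for 49413 regions, with each square a bin of 4 by 4 points colored by its number of regions on a log10 scale. Dashed lines mark 10 points in either direction, within which 80% of regions lay.

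Separated regions were found at middle levels. Between the 20th and the 40th percentile 6.50% of 11651 regions were stronger and 6.24% weaker, whereas above the 90th percentile 0 of 4560 were stronger and 3 (0.0658%) weaker. On this scale a region at the top can be higher in either group by a few points only.

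The 10 regions higher in CSF1R+ cells with the lowest p did not pass correction (limma adjusted p of 0.410 for each), and their groups did not overlap. A region 66 kb upstream of the nearest start of Bach2, a repressor that guides B-cell development and restrains plasma cell differentiation, lay in an intron at chr4:32351217-32351629. Its percentiles were 21.6, 20.4 and 19.0 in CSF1R+ and 2.2, 1.6 and 2.7 in CSF1R- libraries, a difference of 18.2 ± 2.47 (SE). Its summit stacks were 35, 45 and 41 fragments against 22, 21 and 23, so this weak peak was higher in every CSF1R+ library. It is the window shown above with its single ETS match.

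Larger differences were found further up the scale. An intron region 36.4 kb downstream of the start of Cdh17 (chr4:11794307-11794765), which encodes a cadherin, was at 62.8, 78.8 and 79.2 in CSF1R+ and at 17.1, 34.9 and 16.9 in CSF1R- libraries, a difference of 50.7 ± 8.32 (SE). An intron region 12.9 kb into Rfx4 (chr10:84768754-84769296), a gene for a winged-helix transcription factor, was at 67.2, 82.1 and 80.7 against 15.1, 34.9 and 33.9, a difference of 48.7 ± 8.05 (SE). At both regions every CSF1R+ library lay far above every CSF1R- library.

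Promoters made up 2 of the 10. The promoter of Ido1 (chr8:24595184-24596026), the tryptophan-degrading enzyme of suppressive myeloid cells, was at 75.7, 83.5 and 78.8 in CSF1R+ and at 54.9, 51.0 and 53.6 in CSF1R- libraries. The promoter of Cacna1d, a subunit of a voltage-gated calcium channel, was at 36.9, 38.4 and 31.6 against 7.8, 8.7 and 9.1. The other regions were nearest to Arhgap10 (a GTPase-activating protein), Maml3 (a coactivator of Notch), Rassf10, Herpud2 and Sox9 (a transcription factor of cartilage and stem cells). That of Arhgap10 lay 151.1 kb and that of Sox9 282.8 kb from the start. The differences were between 17.6 points at Sox9 and 30.9 points at Maml3. Of the 10 regions, 8 were in introns and 2 between genes.

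The 10 regions lower in CSF1R+ cells with the lowest p did not pass correction either (limma adjusted p of 0.410 for each). A region 127.6 kb upstream of Sox4 (chr13:29081095-29081623), a transcription factor required for pro-B cells, was at 56.7, 47.5 and 45.9 in CSF1R+ and at 91.0, 84.1 and 81.4 in CSF1R- libraries, a difference of -35.5 ± 4.78 (SE). Its summit stacks were 45, 45 and 41 fragments against 104, 80 and 78, and no spleen library had a peak there. An intron region of Myo5a (chr9:75077146-75077545), a myosin motor, was at 5.2, 12.7 and 14.5 against 47.7, 54.1 and 63.3, the largest of these 10 differences at -44.2 ± 6.85 (SE).

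The promoter of Tipin (chr9:64281380-64282127), a protein of the replication fork, was at 81.3, 81.4 and 80.9 in CSF1R+ and at 93.3, 92.0 and 92.6 in CSF1R- libraries, and had the lowest p of all regions (5.37e-05 before adjustment by limma). A region 45.5 kb from the start of Mcm5 (chr8:75154704-75155421), a subunit of the replicative helicase, was at 82.5, 82.3 and 83.5 against 91.9, 93.6 and 92.0. Both were strong peaks in all libraries, and replicates lay close together. The remaining 6 were nearest to Cycs (cytochrome c), Foxred2, Rpap3, Carnmt1, Vps8 (a subunit of an endosomal tethering complex) and Drd4 (a dopamine receptor). That of Rpap3 lay 124 kb from the start. The differences were -12.9 points at Foxred2 to -27.8 points at Drd4. No spleen library had a peak at 4 of the 10 weaker regions.

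**Figure D2:**
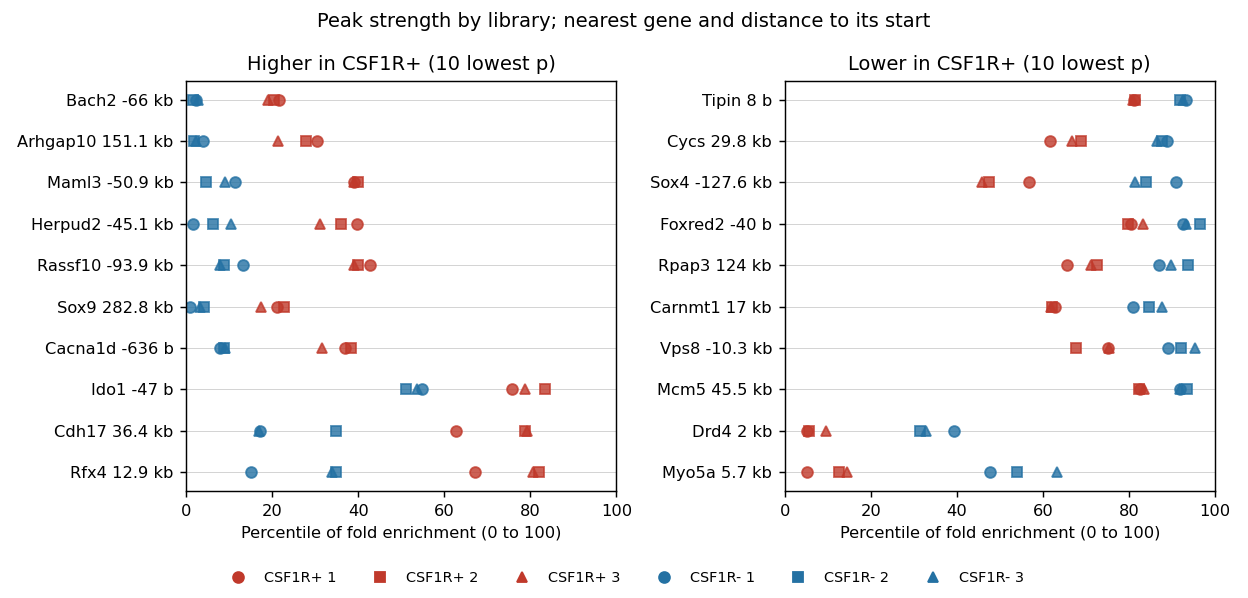
Percentile of fold enrichment (x axis, 0 to 100) in each of the 3 CSF1R+ (red) and 3 CSF1R- (blue) BM libraries at the 10 regions with the lowest p in each direction, labelled by the nearest gene and the distance to its start. The groups do not overlap at any of these regions, none of which passed adjustment.

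Csf1r, whose surface protein defined the sort, had 5 shared regions within 100 kb on chromosome 18, and none passed limma. Its promoter (chr18:61105671-61106213) was at 32.3, 39.2 and 31.1 in CSF1R+ and at 38.6, 34 and 36.8 in CSF1R- libraries, a difference of -2.26 with a 95% interval of -16.8 to 12.2. An intron region 2.8 kb downstream (chr18:61108152-61109063) was at 66.9, 55.0 and 64.6 against 56.4, 66.5 and 50.7, a difference of 4.29 (-10.3 to 18.9). The groups overlapped at both, and the intron peak was the stronger of the 2 in every library. Over the 5 regions the differences lay between -7.29 and 4.29 points with limma adjusted p of 0.767 to 0.977, and 4 of the 5 were lower in CSF1R+ cells. The unscaled summit stacks overlapped at 4 of them. At the region 14.3 kb upstream (chr18:61090600-61092282) the unscaled stacks were 179, 206 and 191 against 291, 316 and 220 fragments. This gap is not scaled between libraries. The first CSF1R+ library had a median stack of 65 and the third CSF1R- library one of 85. The lowest background among peaks was not lower in the former (3.584 against 3.375 fragments), so its median stack is not a measure of depth. After quantile normalization the difference was -0.32 ± 0.12 (SE) on the log2 scale, which did not pass (limma adjusted p = 0.234). The intervals reached 11.8 to 19.8 points to either side.

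Pax5, which keeps B cells committed to their lineage, had 14 shared regions, of which 9 were higher and 5 lower in CSF1R+ cells and none passed limma (adjusted p of 0.595 to 0.990). The largest difference was 18.7 kb upstream (chr4:44728841-44729367), at 57.3, 73.3 and 57.5 in CSF1R+ and at 23.7, 53.2 and 54.0 in CSF1R- libraries, and this was the only separated region of the gene, although its stacks overlapped (52, 93 and 62 against 30, 65 and 53). A neighbor 17.2 kb upstream (chr4:44727507-44727903), with no peak in spleen, had a difference in the other direction, at 52.9, 58.6 and 56.8 against 72.2, 64.4 and 61.4. Of the 3 promoter regions of Pax5, that at chr4:44704354-44704844 was at 55.7, 52.6 and 49.3 against 56.8, 49.2 and 49.2, a difference of 0.783 with a 95% interval of -13.4 to 15. The region 1.1 kb downstream of a start (chr4:44709096-44709456) was at 11.6, 4.1 and 4.4 against 16.0, 13.1 and 8.3, a difference of -5.75 (-13.1 to 1.63), and that at chr4:44710617-44711101 at 3.2, 3.6 and 3.4 against 8.3, 3.8 and 1.7, so the percentiles overlapped at each. The unscaled stacks of the former were lower in every CSF1R+ library, with 149, 165 and 157 against 218, 236 and 201 fragments. After quantile normalization their difference was -0.29 ± 0.12 (SE) on the log2 scale, which did not pass (limma adjusted p = 0.243). At the other Pax5 regions the stacks overlapped.

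**Figure D3:**
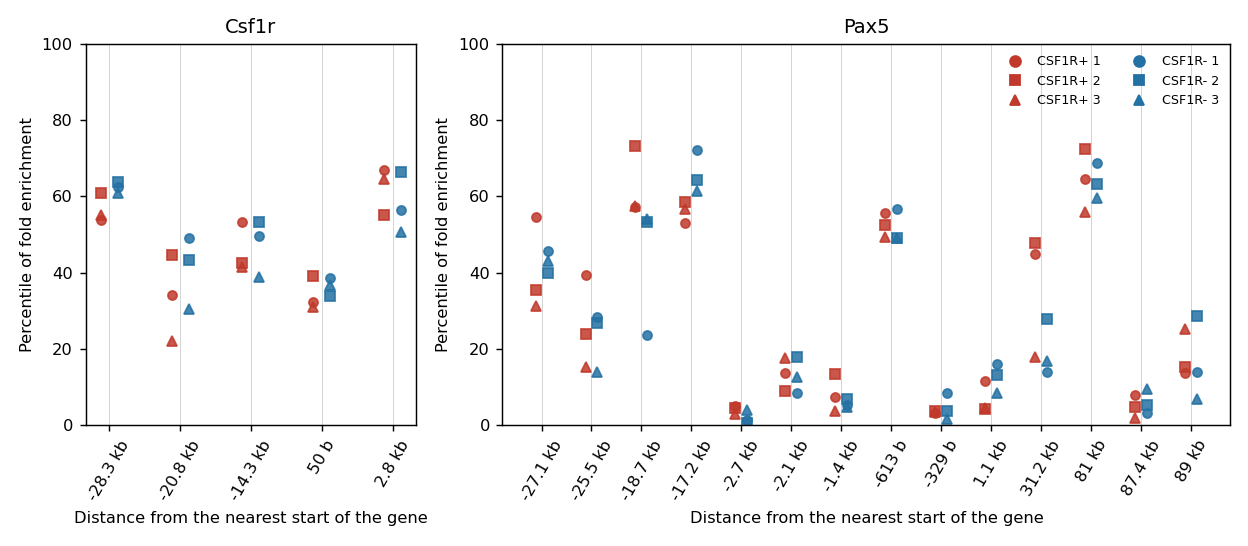
Percentile of fold enrichment (y axis) in the 3 CSF1R+ (red) and 3 CSF1R- (blue) BM libraries at the 5 regions of Csf1r and the 14 regions of Pax5, ordered by distance from the nearest start of the gene (x axis, not to scale). The groups overlap at the promoter of each gene, and the difference at the Csf1r promoter was -2.26 points.

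The transcription factors of the B lineage, Pax5 included, held 212 shared regions, each assigned to the nearest protein-coding start within 100 kb. Of these 12 (5.66%) were separated stronger and 7 (3.30%) weaker, beside 3.69% and 4.08% of all 44531 regions within 100 kb of a start, and the median difference was 0.860 points beside 0.00304. None passed limma. Ebf1, which acts with PAX5 in B-lineage commitment, had a region 42.3 kb upstream (chr11:44574572-44575269) at 83.5, 85.8 and 81.5 in CSF1R+ and 63.5, 69.5 and 67.2 in CSF1R- libraries. Its summit stacks, 196, 249 and 205 against 199, 236 and 214 fragments, overlapped, so the groups were apart over the local background but not in height. Closer to the start, 39.2 kb upstream at chr11:44577867-44578319, another Ebf1 region was at 18.8, 9.2 and 15.3 against 33.0, 38.5 and 29.4, and its stacks did not overlap either (83, 82 and 89 against 138, 175 and 146). No spleen library had a peak there.

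Foxo1, needed for Rag expression and pre-B cell survival, had differences in opposite directions as well. A region 55.9 kb upstream (chr3:52212203-52212582) was at 42.7, 23.0 and 26.0 in CSF1R+ and at 2.6, 3.6 and 3.3 in CSF1R- libraries, and 1 at 25.7 kb upstream (chr3:52242513-52242785) was at 17.4, 26.6 and 22.1 against 61.1, 60.4 and 51.0. The first had no peak in spleen and the second had one in all 6 spleen libraries. Bcl11a, an early lymphoid factor, had an intron region at 11.7, 10.1 and 10.5 against 24.0, 27.3 and 20.6. So the groups were separated at single regions of Ebf1 and Foxo1, in both directions at either gene.

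The components of the pre-B and B-cell receptor held 133 regions, 7 separated stronger (5.26%) and 2 weaker (1.5%), beside 3.69% and 4.08% of all regions. Lyn, a Src-family kinase of the B-cell receptor that also stands in the list of CSF1R signaling genes, had an intron region 34.2 kb downstream of its start (chr4:3712038-3712751) at 23.4, 35.6 and 13.1 in CSF1R+ and 3.3, 2.6 and 6.6 in CSF1R- libraries, although its stacks met at 24 fragments. A region 8.2 kb upstream of Cr2, the complement receptor of mature B cells, was at 44.7, 20.7 and 15.6 against 53.2, 44.9 and 57. Pro-B and pre-B stage genes held 154 regions, with 7 stronger (4.55%) and 5 weaker (3.25%), near those shares. Among them a region 77.4 kb upstream of Cd93, an early B-cell surface marker, was at 47.3, 32.5 and 21.1 against 20.6, 9.7 and 6.2. A region 28.2 kb upstream of Erg, an ETS factor of stem cells and early progenitors, was at 0.6, 14.9 and 17.1 against 25, 23.1 and 33.9, although its stacks met at 27 fragments.

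Genes of immature and mature B cells held 143 regions, 5 stronger (3.50%) and 8 weaker (5.59%). Cd83, an activation marker, had an intron region at 25.5, 24.0 and 18.8 in CSF1R+ and 10.3, 6.5 and 6.2 in CSF1R- libraries. A region 5.3 kb upstream of Bank1, a B-cell scaffold protein, was at 75.2, 52.8 and 72.0 against 88.0, 79.3 and 87.0. In plasma cell genes 2 of 54 regions were stronger (3.70%) and 1 weaker (1.85%), beside 3.69% and 4.08% of all regions. Ell2, an elongation factor of plasma cells, had an intron region at 11.7, 20.7 and 14.2 against 4.9, 2.8 and 3.5.

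Macrophage and monocyte genes, the lineage that the sort marker stands for, held 128 regions, 5 separated stronger (3.91%) and 4 weaker (3.12%), close to the 3.69% and 4.08% of all regions. Their median difference was 0.0659 points. Itgam, which encodes CD11b, had a region 20 kb upstream (chr7:128042263-128042839) at 70.0, 71.1 and 65.1 in CSF1R+ and 57.1, 53.8 and 47.2 in CSF1R- libraries. Its unscaled stacks overlapped (94, 137 and 125 against 95, 112 and 99). After quantile normalization they differed by 0.34 ± 0.15 (SE) on the log2 scale, which did not pass (limma adjusted p = 0.302). A region 23.8 kb upstream of Adgre1, the gene of F4/80, was at 31.4, 8.7 and 21.4 against 39.0, 36.0 and 36.5, and 1 at 60 kb from Irf8, a factor of monocytes and B cells, at 9.8, 15.1 and 14.9 against 20.5, 23.8 and 26.4. These regions of Itgam and Adgre1, the 2 surface markers by which macrophages are gated, did not pass (limma adjusted p of 0.459 and 0.524). They were picked after their values were seen, from a list near the shares of all regions, and are not read as a result about the markers.

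CSF1R signaling genes, which include the receptor and its ligand, held 146 regions, 7 stronger (4.79%) and 7 weaker (4.79%), beside 3.69% and 4.08% of all regions. Pik3r1, the regulatory subunit of PI3 kinase, had a region 37.6 kb upstream (chr13:101805688-101805981) at 15.9, 5.8 and 13.8 in CSF1R+ and 55.4, 52.1 and 32.5 in CSF1R- libraries. Another Pik3r1 region, 33.3 kb downstream, was separated in the other direction, at 78.4, 75.5 and 76.8 against 68.6, 68.5 and 61.8, although its stacks overlapped. Fyn, a Src-family kinase, also had both kinds, with a region 77.5 kb upstream at 15.9, 11.5 and 9.8 against 38.6, 36.1 and 27.4 and a promoter region at 47.6, 32.7 and 38.5 against 22.9, 18.6 and 20.1. Csf1, which encodes the ligand M-CSF, had a region 41.9 kb upstream at 10.8, 3.4 and 8.0 against 39.4, 18.6 and 23.6. The weaker regions of Pik3r1, Fyn and Csf1 had no peak in any spleen library, whereas the stronger regions of Pik3r1 and Fyn had one in all 6. These are picked regions. Of all regions with no spleen peak 5.86% were stronger and 6.74% weaker, and of those with a peak in all 6 spleen libraries 2.86% each.

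Receptors that hold cells in BM or let them leave held 119 regions, 3 stronger (2.52%) and 6 weaker (5.04%), beside 3.69% and 4.08% of all regions. Cnr2, the cannabinoid receptor that holds immature B cells in BM sinusoids, had a region 5.3 kb upstream (chr4:135889936-135890246) at 59.1, 61.0 and 56.5 in CSF1R+ and 79.9, 77.4 and 77.0 in CSF1R- libraries. Its promoter was higher in every CSF1R+ library, at 16.5, 11.4 and 17.2 against 7, 9.7 and 2.2, by less than 10 points in the mean, with overlapping stacks. S1pr1, the receptor of sphingosine phosphate by which lymphocytes leave tissue, had regions 20.7 kb downstream at 49.8, 15.2 and 15.5 against 67.2, 52.3 and 56.8 and 98.9 kb downstream at 19.7, 11.1 and 24.0 against 46.0, 41.2 and 28.7. Itga4, an integrin subunit that binds BM stroma, had a stronger region 49.1 kb upstream at 28.7, 64.5 and 50.6 against 15.1, 27.9 and 13.6, although its stacks overlapped.

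Stem and progenitor regulators held 187 regions, 11 stronger (5.88%) and 7 weaker (3.74%), beside 3.69% and 4.08% of all regions. Runx3 had an intron region at 33.4, 25.2 and 27.1 in CSF1R+ and 11.8, 3.1 and 7.4 in CSF1R- libraries, and Runx1 an intron region at 42.3, 43.6 and 37.5 against 20.2, 23.8 and 14.9, neither with a peak in spleen. The unscaled stacks overlapped at Runx1 (67, 114 and 94 against 46, 70 and 55 fragments). After quantile normalization the Runx1 difference was 0.76 ± 0.20 (SE) on the log2 scale, which did not pass (limma adjusted p = 0.0930). Lmo2, a bridging protein of stem cells, had a region 22.1 kb upstream at 57.3, 53.0 and 41.4 against 25.5, 24.7 and 26.2 and an intron region at 50.8, 57.1 and 68.0 against 76.7, 70.9 and 81.7. Immediate-early genes held 118 regions, 4 stronger (3.39%) and 1 weaker (0.847%), among which a region 98.1 kb upstream of Egr3 was at 52.4, 59.7 and 58.0 against 32.6, 39.7 and 35.7.

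Neutrophil genes held 38 regions, 2 stronger and 2 weaker (5.26% each). Their median difference was 0.827 points on the percentile and -0.132 on the log2 scale of the stack. The promoter of Ltf, the granule protein lactoferrin (chr9:111019035-111019630), was at 17.4, 26.6 and 2.3 in CSF1R+ and 53.2, 44.7 and 51.9 in CSF1R- libraries. The promoter of Camp was at 8.8, 8.2 and 2.3 against 26.5, 9.6 and 16.5 and that of Ngp at 1.7, 0.8 and 0.9 against 6.9, 3.0 and 16.3, both genes of granule proteins too. A region 46.6 kb upstream of Csf3r, the G-CSF receptor, went the other way, at 42.7, 46.1 and 37.1 against 25, 17.0 and 13.6. So did a region 7.6 kb downstream of the start of Ltf, at 50.5, 53.8 and 46.2 against 18.3, 45.6 and 17.2, although its stacks overlapped. Summit stacks at these 3 promoters were lower as well, at Ngp with 26, 20 and 23 against 71, 35 and 129 fragments. The promoters of Ltf, Camp and Ngp had no peak in spleen. Those of S100a8, at 53.1, 55.6 and 36.2 in CSF1R+ against 44.9, 43.6 and 38.8, and S100a9, at 22.8, 18.4 and 23.5 against 12.7, 11.2 and 22.8, overlapped between the groups. What part neutrophils among the sorted cells had in any of these was not tested. Cell cycle genes held 89 regions, of which 5 (5.62%) were stronger and 2 (2.25%) weaker. The shares were 2.70% and 0% of 37 regions of interferon response genes, 2.44% each of 41 of T and NK cell genes, 4.17% and 2.08% of 48 of plasmacytoid dendritic cell genes and 0% each of 22 of erythroid genes, beside 3.69% and 4.08% of all regions. Cdk6, a kinase of the G1 phase, had an intron region at 70.4, 77.3 and 77.4 in CSF1R+ against 56.7, 61.1 and 60.1, although its stacks overlapped. The promoter of Oasl2, an interferon-induced gene, was at 46.1, 36.8 and 40.8 against 26.9, 22.3 and 18.5. No region of any of the 16 lists passed limma, with adjusted p of 0.410 or more.

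No class of regions passed a test between the groups, and with 3 against 3 libraries none could. Promoters, 26.4% of the regions, had a mean percentile of 64.9, 62.6 and 62.8 in CSF1R+ and 62.9, 63.1 and 63.3 in CSF1R- libraries, a difference of 0.335 (exact permutation p = 1, two-sided). Separated regions were fewer among promoters (2.02% stronger, 1.47% weaker) than among distal regions (4.62% and 5.16%). The narrowest 20% of regions, with a median width of 286 bases, was at 26.2, 26.4 and 27.0 in CSF1R+ and 28.9, 26.8 and 28.0 in CSF1R- libraries, and here weaker regions (6.20%) outnumbered stronger ones (3.30%). Regions over 100 kb from any start had a difference of 0.870 points with 6.17% stronger and 5.08% weaker. The smallest p that 3 against 3 samples allow is 0.1. Regions 1 to 20 kb from a start reached it, at 42.2, 42.4 and 42.6 in CSF1R+ and 43.2, 42.7 and 42.9 in CSF1R- libraries. So did the second widest 20% of regions, with a difference of 0.874 points. No class reached an adjusted p under 0.95 over the 19 classes tested by this exact permutation. Of the 11173 regions with no spleen peak 5.86% were stronger and 6.74% weaker, against 2.86% and 2.86% of the 29863 regions with a peak in all 6 spleen libraries, which were wider (median width of 712 against 481 bases).

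Since no region was called, motifs were counted in the separated distal regions, as a description. An ETS match (AGGAAG) stood in 55.4% of 1678 stronger and 36.2% of 1874 weaker distal regions, beside 44.1% of all 36351 distal regions and 39.4% of all 49413. A RUNX match (TGTGGT) stood in 31.3% of stronger, 22.4% of weaker and 24.2% of all distal regions. Both are motifs of factors that open chromatin in blood progenitors, B cells and macrophages alike. The longer PU.1-like motif GAGGAAG, which contains the ETS motif, differed less, with 22.5% against 16.6%.

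E-boxes went the other way. CAGCTG, labelled the E2A E-box here, stood in 17.8% of stronger, 29.0% of weaker and 24.6% of all distal regions. The E-box CACCTG stood in 15.3%, 28.2% and 22.2%, and the CTCF motif AGGGGGC in 4.41%, 9.28% and 7.74%. The EBF motif TCCCNNGGG stood in 9.18% of stronger and 5.34% of weaker regions, whereas the C/EBP motif TTGCNNAA, of macrophage factors, stood in 7.63% and 10.5%. Among promoters the E2A E-box stood in 11.4% of 264 stronger and 22.9% of 192 weaker regions and the ETS motif in 34.5% and 29.7%. Over all 49413 regions RUNX was matched in 20.3%, the E2A E-box in 21.8%, CACCTG in 19.9%, the EBF motif in 7.05%, the CTCF motif in 9.25%, the C/EBP motif in 7.90% and the PU.1-like motif in 17.4%.

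The same motifs were followed over all distal regions, without the choice of separated ones, as the mean percentile of regions with the motif minus that of regions without it. For ETS this was 1.58, 3.42 and 2.29 points in CSF1R+ and -0.458, 0.545 and 0.420 in CSF1R- libraries, and for RUNX 0.763, 1.67 and 0.0689 against -0.380, -0.00929 and -0.893. For CACCTG it was 1.05, 0.0547 and 0.253 against 1.86, 2.06 and 1.47. The groups did not overlap at these 3 motifs, with differences of 2.26, 1.26 and -1.34 points. For the E2A E-box it was 3.69, 2.13 and 1.93 against 3.61, 4.99 and 3.15, and here the groups overlapped. At 9 of the 20 motifs the groups did not overlap, beside 14.3% of all regions taken singly, whatever the size of the difference. The motifs are not independent, since GAGGAAG contains the ETS motif and all are measured in the same libraries. Their number is therefore not read as evidence of a broad motif difference. No exact permutation test of 3 against 3 libraries can go below 0.1. Leaving out any BM library kept the ETS difference between 1.76 and 2.68 points.

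The ETS difference of BM did not show in spleen. Over the 8664 distal regions with an ETS match and a peak in all 12 libraries, the value was 1.67, 2.61 and 1.47 in CSF1R+ and -0.189, 0.593 and -0.128 in CSF1R- BM libraries, and 3.79, 3.46 and 2.40 against 3.89, 3.45 and 2.61 in spleen. The difference between the tissues was 1.92 points (exact permutation p = 0.0600 over 400 relabelings, adjusted p = 0.325 over 20 motifs). It was not particular to ETS. The CTCF motif had a larger one, -2.60 points (exact permutation p = 0.0450, adjusted p = 0.325), and the EBF motif one of 1.80 and the MEF2 motif TAAAAATAG one of 1.90 points. None of the 20 motifs passed this exact permutation test after adjustment, the lowest adjusted p being 0.200 for the NR4A motif AAGGTCA.

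**Figure D4:**
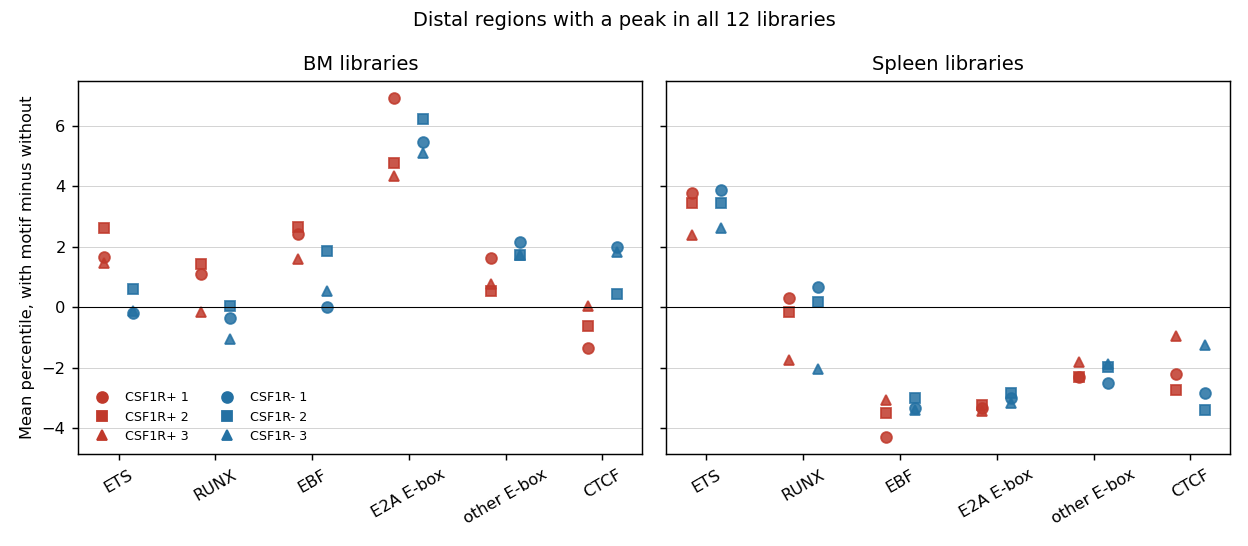
Mean percentile of distal regions with a motif minus that of distal regions without it (y axis, percentile points) for 6 motifs in the 6 BM libraries (left) and the 6 spleen libraries (right), CSF1R+ in red and CSF1R- in blue, over regions with a peak in all 12 libraries. For ETS the CSF1R+ BM libraries lie at 1.47 to 2.61, above the CSF1R- BM libraries at -0.189 to 0.593, and the spleen groups overlap.

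The contrast was then set beside spleen over the 29706 autosomal regions with a peak in all 12 libraries, ranked again over these. With the spread of all 12 libraries, limma called 4 regions stronger (0.0135%) and 1 weaker (0.00337%) in BM CSF1R+ cells, 2 stronger (0.00673%) and 0 weaker (0%) in spleen, and 0 in either direction (0% each) for the difference between the tissues, although 2578 regions had an unadjusted p under 0.05 for it. The 5 BM regions, chosen after their values were seen, were nearest to Kctd8 (606.3 kb from its start), Ebf1, Tshz1, Rfx4 and Tipin. The Ebf1 region described above, 42.3 kb upstream, was at 74.8, 79.2 and 72.8 in CSF1R+ and 49.5, 57.2 and 54.1 in CSF1R- BM libraries on this ranking (limma adjusted p = 0.0342), and at 86.8, 89.6 and 86.5 against 90.3, 88.6 and 86.0 in spleen. Tipin was at 71.7, 73.1 and 72.1 against 89.5, 87.7 and 88.4 in BM (limma adjusted p = 0.0211) and at 94.4, 87.3 and 89.7 against 91.8, 92.0 and 89.9 in spleen. So at both the BM groups did not overlap and the spleen groups did. At the other 3 the spleen groups did not overlap either, and none passed limma there (spleen adjusted p of 0.788 to 0.831). The Rfx4 intron differed in the BM direction, at 78.5, 67.0 and 69.4 in CSF1R+ and 65.6, 56.9 and 60.5 in CSF1R- spleen libraries. The spleen values went against BM at the region nearest to Kctd8, with 93.5, 93.7 and 93.9 against 96.5, 96.1 and 94.2. They also did at a region 232.5 kb from the start of Tshz1, with 9.3, 18.3 and 18.7 against 25.7, 19.7 and 20.6. These calls borrow the spread of the spleen libraries and were not made with the BM libraries alone, and without the variance trend 0 regions were called in BM and 0 in spleen. Leaving out the third spleen CSF1R+ library or the first or the third spleen CSF1R- library took the 5 BM calls to 0, and 2 calls for the difference between tissues were made without the third spleen CSF1R- library. Without the second spleen CSF1R+ library 1 remained by count, and without the second spleen CSF1R- library 3.

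The 2 regions called in spleen lay near Ptchd3 (limma adjusted p of 0.0357 for both) and Samd11, and the BM groups overlapped at each. Either spleen call rests on few libraries, since 0 were made without the first or second spleen CSF1R+ or the first spleen CSF1R- library, 1 without the third CSF1R+ and 17 without the third CSF1R- library. Of the 835 regions separated stronger in BM on this ranking 53.9% had a positive spleen difference, as 44.3% of all regions did, and of the 890 separated weaker 39.7% had a negative one, as 55.7% of all did. Among the 10 of the 20 named regions with a peak in all 6 spleen libraries, limma gave a spleen adjusted p of 0.625 or more. The sign was shared with BM by 3 of 4 stronger and 2 of 6 weaker regions.

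On the fragments stacked at the summit in place of the percentile, an alternative added after the data were seen, 18 regions (0.0364%) were called stronger and 0 (0%) weaker in CSF1R+ cells (limma on quantile-normalized log2 of the stack plus 1, adjusted p under 0.05), with differences of 0.48 to 1.40 on the log2 scale. The stack at a region 345.6 kb from Tshz1 (chromosome 18) was 53, 90 and 63 fragments in CSF1R+ and 17, 28 and 35 in CSF1R- libraries, a difference of 1.40 ± 0.24 (SE) on the log2 scale. That at the Cdh17 intron was 50, 87 and 68 against 23, 36 and 27. An intron region 14 kb upstream of the nearest start of Itga2 (chr13:114915733-114916228), an integrin subunit that binds collagen, had 161, 241 and 166 against 90, 148 and 119. At 14 of the 18 the unscaled stacks did not overlap, which follows in part from choosing the regions by a test on these stacks. On the percentile 13 were also separated stronger, beside 1942 of all 49413 regions (3.93%). Both scores come from the same peaks, so the second is no independent support.

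The lowest adjusted p of these calls, 0.0116 by limma, was at a region 149.8 kb from Ggh (chr4:20191771-20192047) with 223, 302 and 293 fragments against 178, 182 and 181. Its percentile was 100 in every library, at the top of the scale. Its fold enrichment overlapped between the groups, at 34.8, 41.3 and 42.9 in CSF1R+ and 38.4, 38.2 and 37.1 in CSF1R- libraries. So the groups were apart in height but not over the local background. Other called regions were nearest to Sox9, Herpud2, Adamts3, Bcar3, Lrpprc, Chl1, Crisp1, Dennd2d, Pde4d, Kcnc1, Gpam and Gm13691 or at the promoters of Macrod2 and Msl3l2. Of the 18, 6 lay over 100 kb from the start, among them those of Sox9 (282.8 kb), Chl1 (170.5 kb), Pde4d (126.8 kb) and Gpam (401.8 kb). Without the second CSF1R+, the third CSF1R+ or the third CSF1R- library 0 regions were called, and 1 without the first CSF1R- library. Without the first CSF1R+ library, which stood apart on the second principal component, 1145 stronger and 526 weaker regions were called, and without the second CSF1R- library 210 and 27. With array weights 312 stronger and 94 weaker regions were called, and 11 and 0 with stacks scaled to the library median. The largest change came with the replicate number as a block, which gave 2271 stronger and 1301 weaker regions. No label says that the numbers pair the libraries, so the number of regions called on the stack is not settled here.

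**Figure D5:**
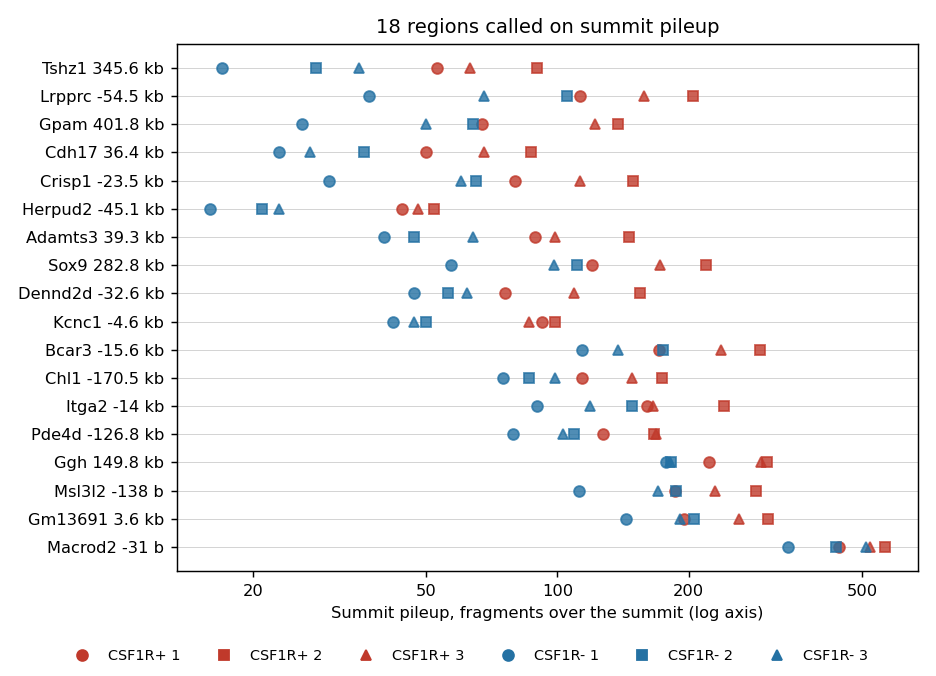
Fragments stacked at the summit (x axis, log scale) in each of the 3 CSF1R+ (red) and 3 CSF1R- (blue) BM libraries at the 18 regions called on this score, labelled by the nearest gene and the distance to its start and ordered by the log2 difference. The stacks are not scaled to depth, and the regions were chosen by a test on them. At 14 of the 18 every CSF1R+ library lies above every CSF1R- library. The largest difference is at the region 345.6 kb from Tshz1 (1.40 on the log2 scale).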

How the data were processed

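ATAC-seq was done on CSF1R+ and CSF1R- BMBP of BM and spleen (3 libraries per group). The authors used cutadapt for trimming, BWA for alignment to mm10 and MACS2 for peaks in each library, after removing multi-mapping, duplicate and blacklisted reads (versions not given in the sources used here; the lists were not pooled). The deposited lists give for each peak a fold enrichment, which is a ratio to the local background, as well as p-values and q-values as −log10. No normalization between libraries is stated, and the read depth of each library is not given in the sources used here.

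Peaks were merged and ranked as described above. The summit stack was solved from fold enrichment and p-value and was whole within 0.01 for 100% of autosomal peaks. Percentiles were compared with limma 3.58.1 (R 4.3.3; trended variance, Benjamini-Hochberg over all regions), and class means with exact permutation tests over libraries, two-sided. Scripts were tested on simulated data. A region was given the nearest protein-coding start in the GENCODE annotation, and sequence was read from RefSeq GRCm38, the build of the files. Motifs were matched on both strands in 200 bases around the mean summit. Same-numbered libraries were not treated as pairs.

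Regions, lists and motifs were chosen with earlier results of these data known. Regions were named by a rule: all regions of Csf1r and Pax5, the 10 in each direction with the lowest p where fewer than 5 passed, and up to 3 per list and direction, of which a selection made after their values were seen is printed. Because no region was called, motif shares use the separated regions. Alternatives changed the scale, score, regions, normalization, variance model and pairing and left out each library. Differential tests on read counts, the study's own method, need counts and were not run. The scRNA-seq samples and the joint peak list were not used.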

Additional observations from a re-analysis of the deposited data

How the results depend on the processing

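On the percentile, 0 regions were called stronger and 0 weaker by limma under every alternative run on fold enrichment or the -log10 p-value, with 0 to 0 when each BM library was left out. Regions separated by 10 points numbered 3187 stronger and 3224 weaker when a peak in 3 libraries was enough, with missing peaks at 0, and 4367 stronger when a peak in any library was. Leaving out each library gave 2507 to 4032 stronger and 2660 to 3985 weaker regions, as fewer libraries have to be apart. Separation was not computed on the log2 and logit scales, on which 10 points have no meaning. The cause of the other changes was not tested.

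On the summit stack, 18 stronger and 0 weaker regions became 11 and 0 when scaled to the library median, 312 and 94 with array weights, and 19 and 0 after adjusting for GC content and width. Leaving out each library gave 0 to 1145 stronger and 0 to 526 weaker, with 210 and 27 without the second CSF1R- library and 1 and 0 without the first. With separation on the stack, the share of distal regions with a motif differed by 23.4 percentage points for ETS and -17.3 for the E2A E-box, in place of 19.2 and -11.2. In spleen, 2 calls became 0 without a variance trend and 0 to 17 when each spleen library was left out, and the 5 BM calls over 12 libraries became 0 without the trend.

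The replicate numbers were not taken to pair the libraries, since no label says so. Same-numbered libraries had correlations of deviations of 0.246, 0.177 and 0.0877 on the percentile and 0.344, 0.269 and 0.0850 on the summit stack. Each correlated best with its own number, which is a hint from the data and not from the design. With the replicate block, 0 stronger and 0 weaker regions were called on the percentile (5737 at an unadjusted p under 0.05), 2271 and 1301 on the summit stack, 0 in spleen and 3 in BM over 12 libraries.

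Fold enrichment depends on the local background, ranks cannot show a uniform change, and regions without a peak in 1 library were left out. With 3 libraries per group, the median 95% interval of a difference was 13.3 points to either side.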

Other observations

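Genes with several separated regions and none in the other direction were listed after the values were seen. Of 14238 genes with a shared region within 100 kb of their start, 1462 had a stronger, 1607 a weaker and 285 both kinds of region. Calcrl, a receptor of the adrenomedullin and CGRP peptides, had 4 stronger among 9 regions, and Itga4, an integrin subunit, had 3 of 7. Bach2, the B-cell repressor, had 3 stronger of 21. Among the weaker, Farp1 had 3 of 4 and Erg, the ETS factor, 3 of 23. In all, 25 genes had at least 3 stronger and 18 at least 3 weaker regions, and no test was made of these counts. Of all 44531 regions within 100 kb of a start 3.69% were separated stronger and 4.08% weaker. The named genes are extremes of 14238, so their counts are not read as traits of these genes.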
